A study of Mus musculus with 27 samples.

Results

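The heme synthesis and breakdown genes described here were 9 protein-coding genes of the mouse: Alas1, Alad, Uros, Urod, Cpox, Ppox and Fech on the synthesis side, and the biliverdin reductases Blvra and Blvrb on the breakdown side. They were the rows of the count table whose Ensembl gene identifiers carry these symbols in the GENCODE M21 annotation, 9 of 43346 genes in the table, and the rule used no expression value. RNA had been sequenced from hepatocytes, the main cell type of the liver, isolated from female mice aged 12 weeks. The mice belonged to 9 inbred strains, the wild-derived strains CAST/EiJ, PWK/PhJ and WSB/EiJ and the classical laboratory strains A/J, C57BL/6J, DBA/2J, NZO/HlLtJ, NOD/ShiLtJ and 129S1/SvImJ. Each strain had 3 libraries that the labels call biological replicates, 27 in all, with no treatment and no engineered allele named. The wider study asked how genetic variation between inbred strains relates to chromatin marks and gene expression.

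Heme is an iron-holding ring that hepatocytes make in large amounts, mainly for cytochrome P450 enzymes. Its synthesis starts in the mitochondrion, where Alas1 joins glycine to succinyl-CoA in the rate-limiting step, continues in the cytosol through Alad, Uros, Urod and other steps, and ends in the mitochondrion with Cpox, Ppox and Fech, the last of which inserts iron. Heme represses Alas1, which closes a feedback loop. Heme oxygenase opens the ring to give biliverdin, and biliverdin reductase turns biliverdin into bilirubin, which the liver conjugates and exports into bile.

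Library totals ran from 17015932 to 35078483 estimated counts, and 14482 genes passed a filter on low counts. All 9 members passed, with between 80 counts (Blvra) and 10362 counts (Alas1) in a library. Levels are given as CPM, counts scaled to library size after TMM scaling, which corrects for a few very abundant transcripts; differences are log2 fold changes from edgeR's quasi-likelihood test with their standard errors (SE), called at a Benjamini-Hochberg adjusted p under 0.05 over all 14482 genes. The summed CPM of 8 hepatocyte markers was 101700 to 323200 in every library. The erythroid list, whose cells make the most heme in the body, summed to 2.87 to 38.3 CPM; Epb42 was at 0 in all 27 libraries and Slc4a1 in 19. The summed markers of Kupffer cells, the macrophages of the liver, ran from 35.04 to 442 CPM, of liver endothelial cells from 42.1 to 500.2, of stellate cells from 28.4 to 168 and of lymphocytes from 0.829 to 11.7. PWK/PhJ replicate 1 was the highest library in the last 4 of these lists. In bulk samples of this kind, fewer cells of a type and less RNA per cell cannot be told apart. C57BL/6J replicate 1, a library of the strain that serves as reference below, lay apart from the other libraries of C57BL/6J in some members: low in Uros and Ppox and high in Blvrb. In Fech it was also the highest library of C57BL/6J (105 CPM), but the others were spread as well, at 80.3 and 64.7 CPM.

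The members differed among strains in size and in kind. By the test for any difference among the 9 strains, 9 of 9 members were called, against 74.2% of all genes tested, so that the count itself does not set them apart. The median distance between the highest and the lowest strain mean was 1.30 on the log2(CPM + 0.5) scale, against 0.94 for all genes tested, whose middle 50% lay between 0.65 and 1.45. Over the 36 pairs of strains, 97 of 324 comparisons of members were called, against 23.4% for all genes, and in 147 of 324 the 3 libraries of a strain did not overlap the 3 of the other, against 38.1% for all genes. Alad took 23 of the called pairs, Blvrb 18, Cpox 13, Blvra 11, Ppox 9, Uros 8, Fech 7, Urod 5 and Alas1 3; the median gene had 8.

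**Figure D1:**
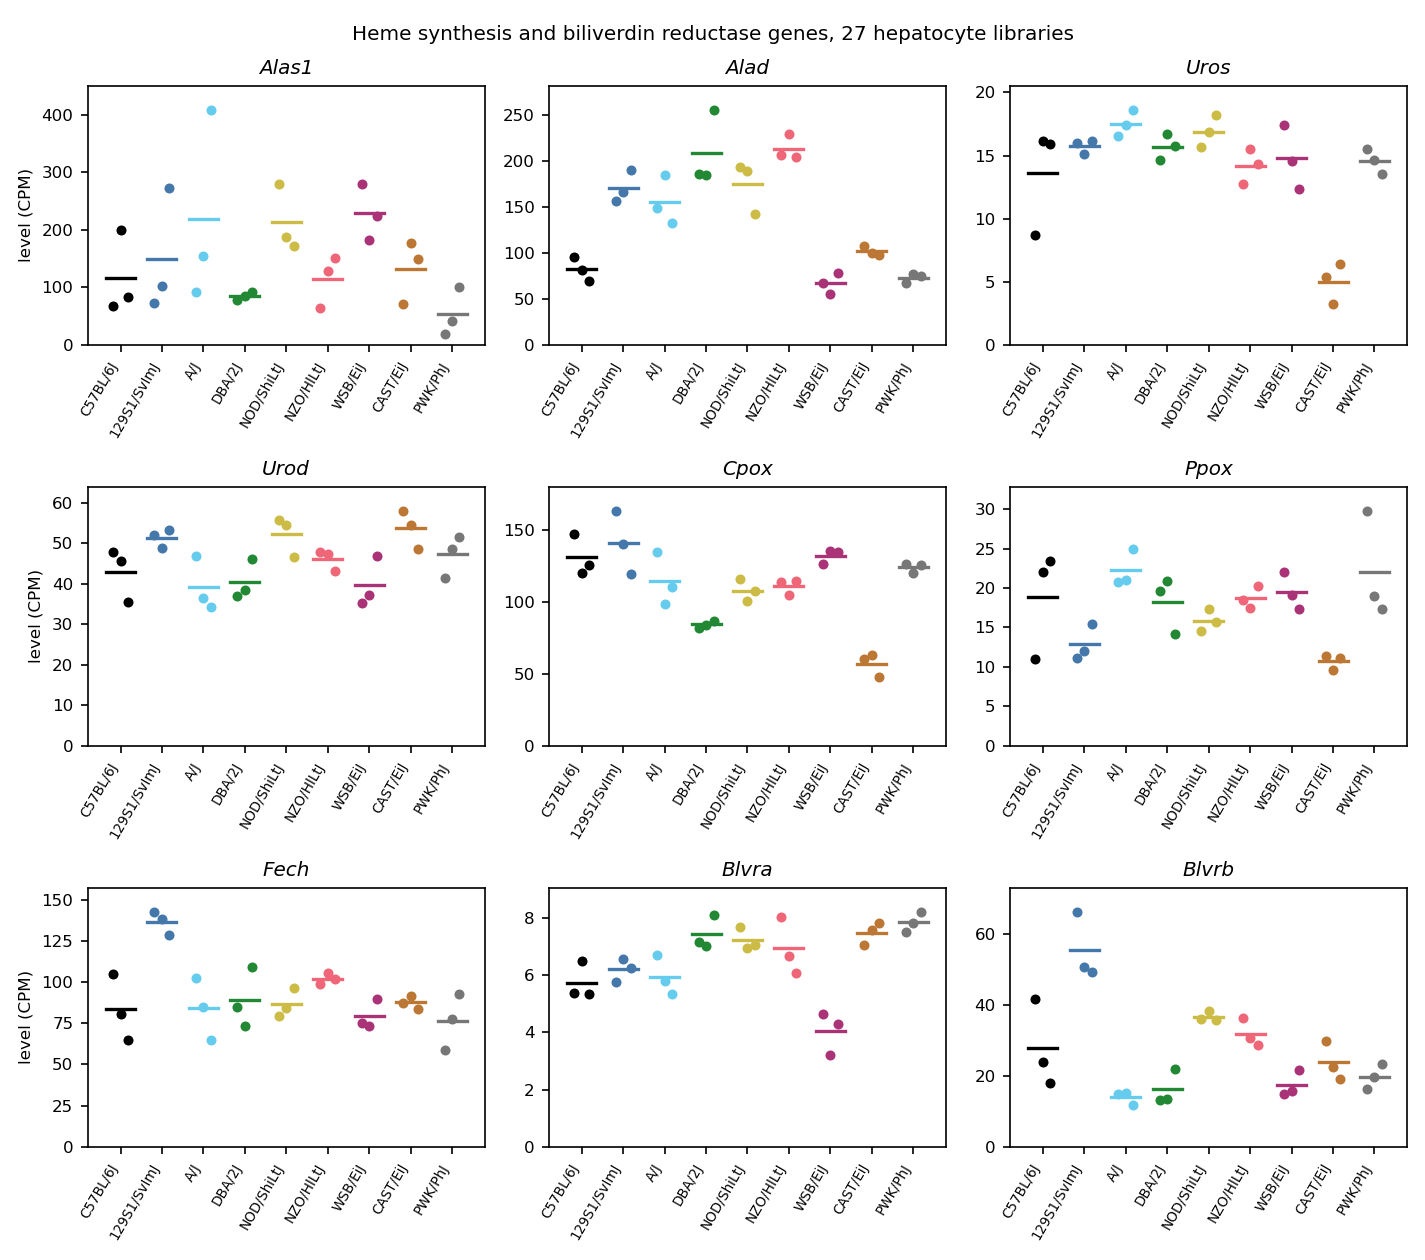
Level of each member (CPM, linear axes that start at 0) in the 27 libraries by strain; points are libraries and bars are means of 3 libraries. Alad falls into 5 strains with libraries from 132 to 256 CPM and 4 strains with libraries from 55.4 to 107 CPM, Uros and Cpox are lowest in CAST/EiJ, and Alas1 varies several-fold among libraries of a strain.

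Measured per kilobase of merged exon, the mean over the 27 libraries was 74.0 CPM for Alad and 23.6 CPM for Alas1. Urod (17.7), Cpox (16.8) and Blvrb (9.73 CPM per kilobase) followed, then Fech (6.62), Uros (3.98), Ppox (3.92) and Blvra (2.68). By this measure Alad, the enzyme after the rate-limiting step, was thus the highest of the 9, and Blvra the lowest. Merged exons join all annotated transcripts of a gene and ran from 1871 bases in Alad to 13838 in Fech, so the order depends on the annotation. Not divided by length, the mean was 146 CPM for Alas1 and 138 CPM for Alad.

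Alas1 (chromosome 9, 106233455 to 106248654, minus strand, GRCm38 as all positions here) encodes the rate-limiting enzyme of heme synthesis in liver. It had the widest range of strain means of the 9 members, 2.37 on the log2(CPM + 0.5) scale, and also the widest scatter within strains: its SD of 0.78 around the strain means exceeded that of 99% of the genes tested. In A/J its libraries stood at 91.3, 154 and 409 CPM, in 129S1/SvImJ at 72.1, 103 and 273 CPM, and in C57BL/6J at 68.2, 199 and 83.8 CPM. The 3 libraries of DBA/2J lay together, at 77.5, 85.0 and 91.1 CPM, below the 3 of WSB/EiJ, at 182 to 280 CPM. PWK/PhJ had the lowest mean, 53.7 ± 42.4 CPM (SD, n = 3), with libraries at 19.3, 40.7 and 101 CPM. The lowest of them was replicate 1, the library with the highest summed markers of Kupffer, endothelial and stellate cells and lymphocytes; their part in its Alas1 level was not tested. WSB/EiJ had the highest, 229 ± 48.9, ahead of A/J (218 ± 168), NOD/ShiLtJ (213 ± 58.6), 129S1/SvImJ (149 ± 108), CAST/EiJ (133 ± 55.5), C57BL/6J (117 ± 71.4), NZO/HlLtJ (115 ± 44.8) and DBA/2J (84.5 ± 6.79 CPM). Every strain overlapped the next in this order.

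Strain accounted for 54.2% of the variance of Alas1 among libraries, against a median of 66.9% over all genes. The test for any difference among strains gave an edgeR adjusted p of 0.03443, and the only called pairs were PWK/PhJ against WSB/EiJ (a difference of 2.09 ± 0.58 on the log2 scale, adjusted p = 0.007983, edgeR), against A/J (2.02, adjusted p = 0.009381) and against NOD/ShiLtJ (1.99, adjusted p = 0.01199), lower in PWK/PhJ each time. The strain call was lost in 6 of the 27 fits that left out 1 library: without PWK/PhJ replicate 2, which gave the highest adjusted p (0.08728), PWK/PhJ replicate 1 (0.06717), DBA/2J replicate 2 or 3, WSB/EiJ replicate 2 or NOD/ShiLtJ replicate 1. Without PWK/PhJ replicate 1 WSB/EiJ minus PWK/PhJ was 1.69 (edgeR adjusted p = 0.03954) and PWK/PhJ minus A/J was -1.62 (adjusted p = 0.04353), and the pair with NOD/ShiLtJ was not called (adjusted p = 0.06646). That pair was also lost without PWK/PhJ replicate 2 (adjusted p = 0.05204). A gene on the opposite strand, 4930500F10Rik, overlaps Alas1 but never exceeded 2 counts in a library.

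Alad (chromosome 4, 62509169 to 62519918, minus strand) encodes delta-aminolevulinic acid dehydratase, which condenses the product of Alas1 into a pyrrole and is the enzyme that lead inhibits. Its strains fell on either side of a gap. NZO/HlLtJ had 206, 230 and 204 CPM, DBA/2J 185, 185 and 256 CPM, NOD/ShiLtJ 193, 189 and 142 CPM, 129S1/SvImJ 156, 166 and 190 CPM, and A/J 149, 185 and 132 CPM. CAST/EiJ had 97.5 to 107 CPM, C57BL/6J 94.9, 81.7 and 69.2 CPM, PWK/PhJ 67.7, 76.6 and 74.8 CPM, and WSB/EiJ 67.4, 55.4 and 77.6 CPM. No library of the first 5 strains fell below 132 CPM and no library of the other 4 exceeded 107 CPM. All 5 strains on the upper side are classical laboratory strains, and C57BL/6J was the classical strain on the lower side with the 3 wild-derived ones.

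Against C57BL/6J, Alad was 2.60-fold higher in NZO/HlLtJ (log2 fold change 1.38 ± 0.17, edgeR adjusted p = 1.692e-06) and 2.55-fold higher in DBA/2J (1.35 ± 0.17, adjusted p = 2.853e-06). It was also called higher in NOD/ShiLtJ (1.09), 129S1/SvImJ (1.06) and A/J (0.92). In CAST/EiJ (0.31, edgeR adjusted p = 0.1459), PWK/PhJ (-0.17) and WSB/EiJ (-0.29) the differences from C57BL/6J were not called. Of the 20 pairs that take a strain from each side of the gap, 20 were called, and of the 16 pairs within a side, 3. The sides were read from the same values, so these counts describe the gap and do not test it; the pair that borders it, A/J against CAST/EiJ, had an adjusted p of 0.004907 (edgeR). Strain accounted for 93.8% of the variance of Alad, a share higher than that of 94% of the genes tested, and its SD within strains was 0.20. All 5 calls against C57BL/6J held in each of the 36 other settings, and the libraries left out moved the difference of DBA/2J only from 1.17 to 1.47.

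A promoter window of Alad is shown as that of the member with the most called pairs. Windows before RefSeq start sites were taken for 8 of the members, and Fech was left out of this search. Each sequence printed here is the C57BL/6J reference of build GRCm38.p6, 250 bases up to a start site. It is given 5′ to 3′ on the strand of the gene, in a window free of annotated exons. Capitals mark matches to any of 7 motifs searched on both strands. The E-box was searched as CACGTG, the site of the factor NRF1 as GCATGCGC, the short form of the cAMP response element as TGACG, and the core of the antioxidant response element as TGACNNNGC, which can overlap the former. The element bound by REV-ERB and ROR was searched as TAGGTCA, the TATA box as TATAAA and the GC box as GGGCGG. RefSeq lists 2 start sites of Alad, and the window printed, chr4:62520064-62520313 on the minus strand, belongs to the one whose start was not found in a GENCODE transcript; the other window overlaps an annotated exon.
Alad: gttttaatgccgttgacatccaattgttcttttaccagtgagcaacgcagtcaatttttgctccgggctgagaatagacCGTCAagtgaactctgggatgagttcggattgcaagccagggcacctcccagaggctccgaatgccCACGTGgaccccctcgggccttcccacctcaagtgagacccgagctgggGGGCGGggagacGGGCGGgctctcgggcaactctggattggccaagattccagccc
It holds an E-box at positions -105 to -100 from the start site, a reversed TGACG at -171 to -167, and GC boxes at -56 to -51 and -44 to -39. The window of the other start site, chr4:62519910-62520159, whose start is in a GENCODE transcript, overlaps the printed one and holds an E-box of its own at -28 to -23 and 6 GC boxes. Over all 32851 promoter windows of this length, 6.02% hold CACGTG, 17.8% TGACG and 32.7% GGGCGG. A match is a string of letters and shows no binding, and the sequence of the other strains was not analysed here.

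The genes around Alad were looked at in their chromosomal order, 3 tested genes on each side. Hdhd3, a gene of the haloacid dehalogenase-like hydrolase family (chromosome 4, 62499008 to 62503467), lies 5702 bases from Alad and had a like order of strains. NZO/HlLtJ (30.7 ± 5.68 CPM, SD, n = 3), DBA/2J (29.7 ± 12.6) and NOD/ShiLtJ (26.0 ± 9.17) were highest, and C57BL/6J (10.3 ± 1.32) and WSB/EiJ (7.92 ± 2.71) lowest. Between them stood CAST/EiJ (18.8 ± 0.86), A/J (18.6 ± 3.79), 129S1/SvImJ (15.3 ± 1.14) and PWK/PhJ (14.3 ± 5.55 CPM). CAST/EiJ thus did not fall below A/J and 129S1/SvImJ as it did in Alad. Hdhd3 was called higher than in C57BL/6J in NZO/HlLtJ (1.58 ± 0.29, edgeR adjusted p = 0.0003977), DBA/2J (1.53 ± 0.30, adjusted p = 0.000791), NOD/ShiLtJ (1.34) and CAST/EiJ (0.87), the last a strain in which Alad was not called. It was not called in A/J (0.86, edgeR adjusted p = 0.07886) or 129S1/SvImJ (0.58, adjusted p = 0.1553), where Alad was called higher. Over the 9 strain means, Pearson's r between Alad and Hdhd3 was 0.88 and Spearman's rho 0.92, and r was 0.83 without the 2 strains farthest from the median of Alad. Within strains, over the 27 libraries, r was 0.30. Pole3, a subunit of DNA polymerase epsilon, lies closer to Alad, 2731 bases away on the other side, and did not share its order: r over the 9 strain means was 0.20, and DBA/2J differed from C57BL/6J by -0.23 ± 0.13 (edgeR adjusted p = 0.3225). For Prpf4, Wdr31, Rgs3 and Zfp618, between 38273 and 445655 bases away, r was 0.64, 0.01, 0.43 and 0.18. Prpf4 was not called for a strain difference (edgeR adjusted p = 0.07032) and Zfp618 averaged 0.60 CPM. Alad is known to vary in copy number between mouse strains and to be duplicated in DBA/2J, and its comparison with C57BL/6J was chosen for that reason. Copy number and linked variants were not measured in this table, and their part in these differences was not tested.

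**Figure D2:**
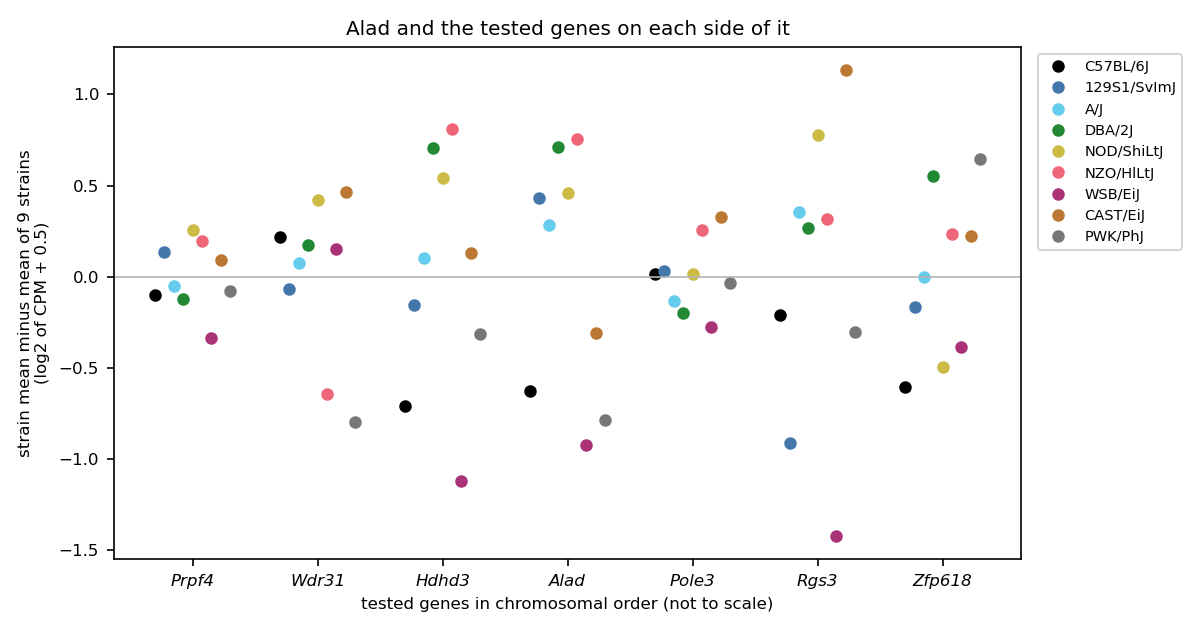
Strain means of Alad and the 3 tested genes on each side of it, as the difference from the mean of the 9 strains on the log2(CPM + 0.5) scale; each point is a strain, and genes are in chromosomal order without scale. Hdhd3 and Alad both place NZO/HlLtJ, DBA/2J and NOD/ShiLtJ at the top and C57BL/6J and WSB/EiJ near the bottom, whereas Pole3 spans a range of 0.60.

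Uros (chromosome 7, 133686243 to 133710072, minus strand) encodes uroporphyrinogen III synthase, which closes the ring. In CAST/EiJ its libraries had 5.35, 3.20 and 6.39 CPM, and in no other strain did a library fall below 8.68 CPM. The means of the other 8 strains lay between 13.6 ± 4.25 CPM in C57BL/6J and 17.5 ± 1.06 CPM in A/J (SD, n = 3), and each overlapped its neighbour in the order. The low value of C57BL/6J came from replicate 1 (8.68 CPM, beside 16.2 and 15.9). CAST/EiJ was lower than C57BL/6J by a log2 difference of -1.46 ± 0.21 (edgeR adjusted p = 6.79e-06), or -1.70 without C57BL/6J replicate 1. All 8 pairs with CAST/EiJ were called and 0 of the 28 others. Bccip overlaps Uros on the opposite strand, and in a library without strand information reads from the overlap cannot be told apart. Bccip had 21.2 ± 2.04 CPM in CAST/EiJ and 20.8 ± 2.90 CPM in C57BL/6J.

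Urod (chromosome 4, 116989965 to 116994413, minus strand) encodes uroporphyrinogen decarboxylase, whose loss underlies porphyria cutanea tarda. It was the most even of the 9 members. Its strain means ran from 39.2 ± 6.67 CPM in A/J to 53.7 ± 4.82 CPM in CAST/EiJ (SD, n = 3), a 1.37-fold span, and the range of 0.46 was larger than that of only 8.8% of the genes tested. Each strain overlapped the next in the order, and 5 of the 36 pairs were called, all of them between CAST/EiJ, NOD/ShiLtJ or 129S1/SvImJ on the higher side and A/J, DBA/2J or WSB/EiJ on the lower. No strain was called against C57BL/6J (43.0 ± 6.52 CPM). The call for any strain difference (edgeR adjusted p = 0.02861) was lost in 7 of the 27 fits without a library, up to 0.06285 without CAST/EiJ replicate 1. These were the fits without A/J replicate 2 or 3, CAST/EiJ replicate 1 or 4, WSB/EiJ replicate 3, or NOD/ShiLtJ replicate 1 or 2. It was also lost without the filter on low counts (adjusted p = 0.07107, edgeR) and with the replicate number as a block (0.06744).

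Cpox (chromosome 16, 58670292 to 58717636, plus strand) encodes coproporphyrinogen oxidase, which works between the membranes of the mitochondrion. CAST/EiJ was lowest, with libraries of 60.2, 63.3 and 47.6 CPM, and DBA/2J next, with 82.3, 84.3 and 87.3 CPM. In the other 7 strains the libraries ran from 98.6 to 164 CPM, and the means from 108 ± 7.41 CPM in NOD/ShiLtJ to 142 ± 22.0 CPM in 129S1/SvImJ (SD, n = 3). Neither CAST/EiJ nor DBA/2J overlapped a neighbour, although DBA/2J against NOD/ShiLtJ was not called (edgeR adjusted p = 0.1064). Against C57BL/6J (131 ± 14.2 CPM), CAST/EiJ was lower by a log2 difference of -1.20 ± 0.14 (edgeR adjusted p = 2.563e-07) and DBA/2J by -0.63 ± 0.14 (adjusted p = 0.002602), and CAST/EiJ also differed from DBA/2J (adjusted p = 0.002505). Strain accounted for 91.1% of the variance. Without TMM scaling the call for DBA/2J was lost (-0.55, edgeR adjusted p = 0.06171). Gpr15 overlaps Cpox on the opposite strand and never exceeded 1 count in a library. The window before the RefSeq start site of Cpox, chr16:58669958-58670207 on the plus strand, is printed because Cpox had the third-most called pairs. This start was not found in a GENCODE transcript, and the annotated gene begins downstream of it, at 58670292.
Cpox: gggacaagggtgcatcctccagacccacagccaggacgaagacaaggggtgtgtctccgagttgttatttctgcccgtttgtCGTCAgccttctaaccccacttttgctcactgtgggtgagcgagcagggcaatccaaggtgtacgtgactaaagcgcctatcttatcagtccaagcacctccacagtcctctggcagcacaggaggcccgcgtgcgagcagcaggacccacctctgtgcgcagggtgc
Of the motifs searched it holds a reversed TGACG at positions -168 to -164 from the start site.

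Ppox (chromosome 1, 171275990 to 171281186, minus strand) encodes protoporphyrinogen oxidase, the next enzyme. CAST/EiJ was again lowest (11.4, 9.67 and 11.1 CPM) and 129S1/SvImJ next (11.2, 12.0 and 15.5 CPM), and the ranges of these strains overlapped. A/J was highest, with 20.8, 21.0 and 25.01 CPM. All 9 called pairs joined CAST/EiJ or 129S1/SvImJ with a higher strain, among them CAST/EiJ against A/J (-1.06 ± 0.23, edgeR adjusted p = 0.0006771). In C57BL/6J, replicate 1 had 11.0 CPM and the others 22.0 and 23.4 CPM. CAST/EiJ was called lower than C57BL/6J (-0.81 ± 0.23, edgeR adjusted p = 0.006644); the difference was -1.08 without C57BL/6J replicate 1, and -0.62, not called (adjusted p = 0.05766), without C57BL/6J replicate 4. The counts of Ppox were not whole numbers in 26 of the 27 libraries, which shows that some of its reads had been divided among features. B4galt3 overlaps Ppox on the opposite strand and was 7.07 ± 0.77 CPM in CAST/EiJ and 8.002 ± 1.11 CPM in C57BL/6J.

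Fech (chromosome 18, 64452914 to 64490251, minus strand) encodes ferrochelatase, which completes heme. It was highest in 129S1/SvImJ, with 143, 139 and 129 CPM, above every library of the other 8 strains, the highest of which had 109 CPM. Among those 8 strains the lowest mean was 76.4 ± 17.04 CPM (PWK/PhJ) and the highest 102 ± 3.44 CPM (NZO/HlLtJ; SD, n = 3). 129S1/SvImJ was called against 7 of the 8 others and not against NZO/HlLtJ (edgeR adjusted p = 0.1697), and 0 of the 28 pairs without 129S1/SvImJ were called. Against C57BL/6J (105, 80.3 and 64.7 CPM) the log2 difference was 0.71 ± 0.19 (edgeR adjusted p = 0.00913), or 0.56 and not called (adjusted p = 0.07797) without C57BL/6J replicate 4.

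The biliverdin reductases differed from each other in level and pattern. Blvra (chromosome 2, 127070665 to 127097084, plus strand), which acts on the alpha isomer of biliverdin, was the least abundant member. WSB/EiJ had the lowest level, with 4.64, 3.23 and 4.28 CPM, and no library of another strain fell below 5.33 CPM. PWK/PhJ was highest (7.86 ± 0.36 CPM, SD, n = 3). All 8 pairs with WSB/EiJ were called, as were 3 of the 28 others. Against C57BL/6J (5.73 ± 0.65 CPM) Blvra was lower in WSB/EiJ by a log2 difference of -0.50 ± 0.15 (edgeR adjusted p = 0.0255) and higher in PWK/PhJ (0.46, adjusted p = 0.02262) and CAST/EiJ (0.39, adjusted p = 0.03999). These 3 calls were lost without the filter on low counts, where the adjusted p was 0.1303, 0.1006 and 0.1317. With a library left out they were lost in 2, 4 and 5 of 27 fits, among them the fit without C57BL/6J replicate 2 for WSB/EiJ and those without C57BL/6J replicate 1 or 4 for PWK/PhJ and CAST/EiJ.

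Blvrb (chromosome 7, 27447978 to 27466144, plus strand), a flavin reductase that also acts on biliverdin beta, covered a 3.98-fold span of strain means. 129S1/SvImJ had 66.5, 50.8 and 49.5 CPM, above every other library, and A/J had 14.8, 15.2 and 11.9 CPM. Between them stood NOD/ShiLtJ (36.7 ± 1.31 CPM), NZO/HlLtJ (31.9 ± 3.98), C57BL/6J (27.9 ± 12.3), CAST/EiJ (23.9 ± 5.42), PWK/PhJ (19.9 ± 3.59), WSB/EiJ (17.5 ± 3.74) and DBA/2J (16.3 ± 5.01 CPM, SD, n = 3), each overlapping the next. 129S1/SvImJ differed from A/J by a log2 difference of 2.00 ± 0.25 (edgeR adjusted p = 3.962e-06), and 17 other pairs were called.

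Against C57BL/6J, Blvrb was called higher in 129S1/SvImJ (0.99 ± 0.25, edgeR adjusted p = 0.006164) and lower in A/J (-1.003 ± 0.25, adjusted p = 0.01043) and DBA/2J (-0.78 ± 0.25, adjusted p = 0.04959). These 3 calls rest on the libraries of C57BL/6J, which stood at 41.6, 24.1 and 18.1 CPM. Without C57BL/6J replicate 1 the difference of A/J shrank to -0.60 (edgeR adjusted p = 0.1615), and without C57BL/6J replicate 4 that of 129S1/SvImJ was 0.76 (adjusted p = 0.05639). The call for DBA/2J held in 5 of the 27 fits that left out a library, and its difference fell to -0.37 (adjusted p = 0.3754, edgeR) without C57BL/6J replicate 1 and was -1.06 without DBA/2J replicate 4. RefSeq lists 2 start sites of Blvrb, both in a GENCODE transcript. The window before the first, chr7:27447728-27447977 on the plus strand, is printed because Blvrb was second to Alad in called pairs and this site is where the annotated gene begins.
Blvrb: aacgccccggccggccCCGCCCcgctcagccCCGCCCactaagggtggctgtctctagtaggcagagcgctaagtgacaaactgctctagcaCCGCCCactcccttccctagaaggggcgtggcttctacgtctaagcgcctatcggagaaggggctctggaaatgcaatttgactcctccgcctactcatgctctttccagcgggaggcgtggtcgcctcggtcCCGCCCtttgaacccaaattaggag
It holds 4 GC boxes, all as the reverse complement of GGGCGG, which begin at positions -234, -219, -158 and -25 from the start site, and none of the other 6 motifs. The window before the other start site, chr7:27452168-27452417, holds none of the 7.

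Set against C57BL/6J strain by strain, 16 of the 72 comparisons of members were called, 9 higher (12.5%) and 7 lower (9.72%). Over all genes and the 8 strains, 9.52% of comparisons were called higher and 10.6% lower, so these counts do not set the members apart. CAST/EiJ had 4 of 9 members called, where 38% of all genes were called: Uros, Cpox and Ppox lower and Blvra higher. 129S1/SvImJ had 3 of 9 (20.9% of all genes), Alad, Fech and Blvrb, all higher. DBA/2J also had 3 of 9 (9.06%), Alad higher and Cpox and Blvrb lower. A/J had 2 of 9 (7.84%), Alad higher and Blvrb lower. The other 4 strains had 1 of 9 each: Alad higher in NOD/ShiLtJ (15.9% of all genes) and NZO/HlLtJ (29.3%), Blvra higher in PWK/PhJ (26.2%) and lower in WSB/EiJ (13.6%). Alas1 and Urod were called in none of the 8 strains. All 8 comparisons share the 3 libraries of C57BL/6J. With only the 6 libraries of each pair in the fit, 10 calls were made, all 10 of them among these 16.

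**Figure D3:**
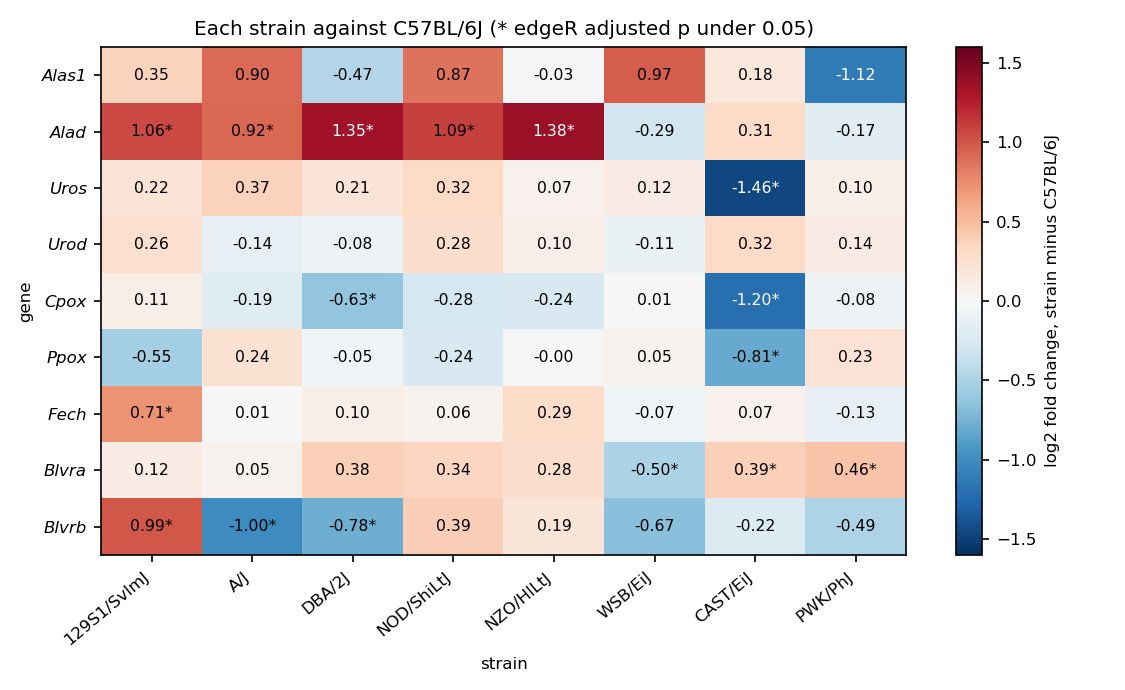
Log2 fold change of each member in each strain against C57BL/6J, with the value in each cell and an asterisk where edgeR's adjusted p is under 0.05. Alad is marked higher in 5 strains, CAST/EiJ carries the lowest values in Uros (-1.46), Cpox (-1.20) and Ppox (-0.81), and the rows of Alas1 and Urod carry no asterisk.

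CAST/EiJ thus held the lowest strain mean in 3 of the 9 members, which encode an enzyme of the cytosol (Uros) and neighbouring enzymes of the mitochondrion (Cpox and Ppox), and the highest in Urod, which stands between them in the pathway. 129S1/SvImJ held the highest mean in 3 members, Cpox, Fech and Blvrb. How often each strain is highest or lowest over all genes was not counted, so these counts do not set the members apart. CAST/EiJ had the largest share of all genes called against C57BL/6J, 38%. Strains other than C57BL/6J carry sequence differences from the reference genome, CAST/EiJ and PWK/PhJ the most, and whether reads were aligned to a genome of each strain is not given in the sources used here. Fewer transcripts and lost reads cannot be told apart here. PWK/PhJ, the other strain of this kind, had 14.6 ± 0.98 CPM of Uros, 124 ± 3.48 of Cpox and 22.1 ± 6.76 of Ppox (SD, n = 3), none of them called against C57BL/6J. Sequence differences of CAST/EiJ and PWK/PhJ in these genes were not compared, and the part of lost reads was not tested.

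Beside the members, Alas2 and the heme oxygenases Hmox1 and Hmox2 were each called for a strain difference (edgeR adjusted p = 1.421e-10, 2.566e-05 and 0.001926). Alas2, the form of the first enzyme that red cell precursors use, was measured at 22.9 ± 2.47 CPM in NZO/HlLtJ, 7.73 ± 1.30 in C57BL/6J, 1.59 ± 0.54 in CAST/EiJ and 0.85 ± 0.19 in PWK/PhJ (SD, n = 3). Against C57BL/6J the log2 differences were 1.56 in NZO/HlLtJ (edgeR adjusted p = 0.0001603), -2.25 in CAST/EiJ (2.302e-06) and -3.18 in PWK/PhJ (4.708e-08). Its counts were not whole in 26 libraries. The summed erythroid list, which contains Alas2, was 25.9 ± 2.25 CPM in NZO/HlLtJ, 24.2 ± 12.3 in C57BL/6J, 17.8 ± 11.0 in PWK/PhJ and 4.84 ± 2.08 in CAST/EiJ, and the highest library for it was C57BL/6J replicate 1. Alas2 itself made up most of this sum in NZO/HlLtJ (22.9 of 25.9 CPM) and little of it in PWK/PhJ (0.85 of 17.8 CPM). The sum is therefore not a measure of red cells separate from Alas2, and the other genes of the list did not follow Alas2 in these 2 strains. The part of red cells or their precursors in the level of Alas2 was not tested.

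Hmox1, the inducible heme oxygenase, was highest in A/J (13.2 ± 2.61 CPM), C57BL/6J (11.3 ± 1.86) and PWK/PhJ (10.4 ± 3.83) and lower than in C57BL/6J in 129S1/SvImJ (3.65 ± 1.04; log2 difference -1.63, edgeR adjusted p = 0.0004852), NZO/HlLtJ (4.34 ± 1.51), CAST/EiJ (4.48 ± 0.86) and NOD/ShiLtJ (5.85 ± 0.77 CPM, SD, n = 3). Kupffer cells also express Hmox1. The summed Kupffer cell list was 209 ± 78.8 CPM in A/J, 250.1 ± 36.3 in C57BL/6J and 248 ± 168 in PWK/PhJ, against 60.5 ± 26.7 in 129S1/SvImJ, 69.2 ± 29.7 in NZO/HlLtJ, 65.99 ± 6.54 in CAST/EiJ and 78.9 ± 5.17 in NOD/ShiLtJ; their part in the Hmox1 result was not tested. Hmox2, the constitutive form, ranged less, from 19.7 ± 2.87 CPM in WSB/EiJ to 29.8 ± 3.36 in 129S1/SvImJ and 29.7 ± 0.89 in CAST/EiJ, which was the strain called against C57BL/6J (0.36 ± 0.14, edgeR adjusted p = 0.04028). Its counts were not whole in 27 of 27 libraries.

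Wider lists of heme genes gave the setting. For each list, the share called for a strain difference is to be read against 74.2% of all genes tested, and comparisons with C57BL/6J against 9.52% called higher and 10.6% called lower over all genes and the 8 strains. Among 19 genes of heme and porphyrin transport and assembly, 16 were called for a strain difference (84.2%), and 10 of 152 comparisons with C57BL/6J were called higher (6.58%) and 25 lower (16.4%). Hemopexin (Hpx), the plasma protein that carries free heme, reached 11180 ± 3559 CPM in PWK/PhJ against 4849 ± 1281 in C57BL/6J (1.21 ± 0.25, edgeR adjusted p = 0.0008813). Tspo, a porphyrin-binding protein of the outer mitochondrial membrane, was lower in PWK/PhJ (14.2 ± 4.30 CPM) and NZO/HlLtJ (16.0 ± 2.27) than in C57BL/6J (35.8 ± 1.89 CPM, SD, n = 3; adjusted p = 3.708e-05 and 0.0002942, edgeR).

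All 6 genes of bilirubin handling were called (74.2% of all genes), with 5 of 48 comparisons with C57BL/6J higher (10.4%, against 9.52%) and 20 lower (41.7%, against 10.6%). The 2 with the widest range were Slco1a1, an uptake transporter of organic anions (574 ± 58.9 CPM in NOD/ShiLtJ, 43.0 ± 49.3 in C57BL/6J), and Gsta1, a glutathione transferase of the family that binds bilirubin (31.6 ± 31.1 CPM in WSB/EiJ, with libraries from 9.91 to 67.3, against 1.99 ± 1.32 in C57BL/6J, SD, n = 3). Reads of both genes had been divided among features (values not whole in 24 and 27 libraries), so both are uncertain. Of 15 enzymes that contain heme, 13 were called (86.7%, against 74.2%), with 12 of 120 comparisons higher (10%) and 19 lower (15.8%). Cyp4a14, a fatty acid hydroxylase, was 15.0 ± 3.39 CPM in PWK/PhJ against 1813 ± 565 in C57BL/6J (-6.92 ± 0.71, edgeR adjusted p = 5.777e-08), and Cyp51, an enzyme of cholesterol synthesis, was 22.5 ± 1.04 CPM in CAST/EiJ against 322 ± 155 (-3.84 ± 0.58, adjusted p = 1.289e-05). Over all 60 genes of these lists, 50 were called (83.3%), and the median range of 1.05 lay between that of the members and that of all genes.

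The 16 regulators of Alas1 in liver had 11 genes called (68.8%, against 74.2% of all genes) and 11 of 128 comparisons with C57BL/6J higher (8.59%, against 9.52%) and 10 lower (7.81%, against 10.6%), each share below that of all genes. The clock genes Npas2 and Nr1d1 had the widest ranges. Npas2, which activates Alas1 transcription, was 12.0 ± 1.59 CPM in NZO/HlLtJ against 2.22 ± 1.52 in C57BL/6J (2.43 ± 0.56, edgeR adjusted p = 0.002725), and the repressor Nr1d1 was 10.9 ± 2.41 in NZO/HlLtJ against 60.1 ± 14.5 (-2.47 ± 0.44, adjusted p = 0.0002645). Alas1 itself in NZO/HlLtJ differed from C57BL/6J by -0.03 ± 0.56 (adjusted p = 0.9808). The time of day at which each mouse was sampled is not given in the sources used here. Arntl, the partner of Npas2, was also called higher in NZO/HlLtJ (21.2 ± 1.07 CPM against 7.59 ± 2.99), and counts of Nr1d1 were not whole in 27 of 27 libraries.

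**Figure D4:**
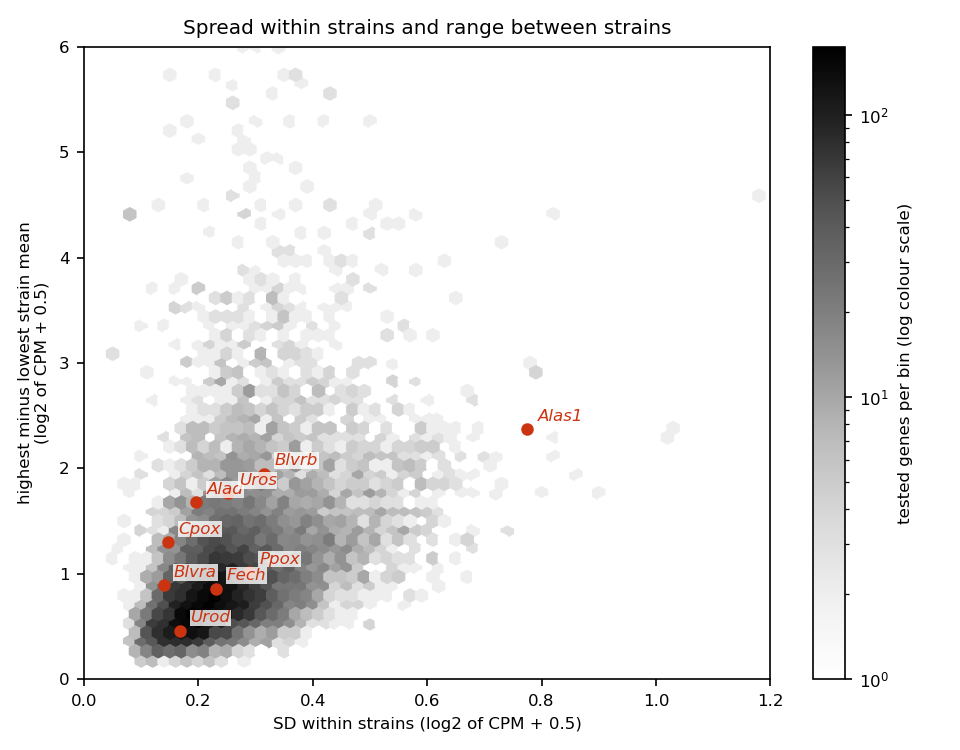
SD of libraries within strains against the range of strain means (both on the log2(CPM + 0.5) scale) for the genes tested, shaded by the number of genes, with the members as labelled points; 161 genes lie outside the axes. Alas1 stands far to the right at an SD of 0.78, whereas Alad, Cpox and Blvra combine ranges of 1.68, 1.30 and 0.89 with SDs of 0.20 or less.

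Within strains, the members did not vary as a block. Among the 36 pairs of members, deviations of the 27 libraries from their strain means gave a Pearson's r above 0.5 in 7 pairs and below -0.5 in 5. The share of such pairs among all genes was not computed, so these counts do not set the members apart. Ppox moved against Fech (r = -0.82, Spearman's rho = -0.79; r = -0.76 without the 2 libraries farthest from the median of Ppox) and against Blvrb (r = -0.80, rho = -0.76; -0.73 without 2). Fech moved with Blvrb (r = 0.78, rho = 0.79; 0.73 without 2), and Urod with Blvrb (r = 0.77, rho = 0.78; 0.77 without 2). Alas1 and Alad, adjacent steps, had r = 0.12. These values describe libraries that share depth, scaling and preparation, 3 to a strain, and carry no test. The slope of expression on transcript GC content differs among libraries. Its r was -0.43 with the deviations of Fech, 0.29 with those of Ppox, -0.1 with those of Urod and -0.02 with those of Blvrb. The part of this slope in these relations was not tested. Between strain means the relations rested on few strains: for Uros and Cpox r was 0.79 over 9 strains, but rho was 0.17 and r was -0.37 without 2 strains, and for Fech and Blvrb r was 0.77, rho 0.47 and r 0.23 without 2.

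The genes whose strain means ran most like those of 3 members were taken from 4850 genes called for a strain difference with a mean of at least 10 CPM, by Pearson's r over the 9 strain means. For Alad they were Mup1, a major urinary protein gene (r = 0.93), Tpmt, thiopurine methyltransferase (0.92), and Sfr1 (0.92). Mup1 lies on chromosome 4, as Alad does, whereas Tpmt and Sfr1 lie on chromosomes 13 and 19. Linkage between Mup1 and Alad was not tested. Mup1 had 1937 ± 467 CPM in NZO/HlLtJ and 1461 ± 258 in DBA/2J against 59.6 ± 10.8 in C57BL/6J and 9.79 ± 4.33 in WSB/EiJ (SD, n = 3), and near-identical copies make its count uncertain. Tpmt had 39.4 ± 1.66 CPM in NZO/HlLtJ, 8.48 ± 2.17 in C57BL/6J and 24.8 ± 3.64 in CAST/EiJ, where it was called higher (1.55 ± 0.23, edgeR adjusted p = 1.243e-05) and Alad was not. For Alas1 they were Ndufaf4, an assembly factor of respiratory complex I (r = 0.97), Upf1 (0.90) and Smg5 (0.89), the latter 2 factors of nonsense-mediated decay whose ranges, 0.53 and 0.49, were far smaller than that of Alas1. For Blvrb they were Spg20 (0.95), Hp1bp3 (0.94) and Drap1 (0.93). With 9 strain means and 4850 candidates, high values of r are found for any gene, and they carry no test.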

How the data were processed

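RNA was sequenced from hepatocytes of female mice of 9 strains, 3 libraries per strain. Per the labels' protocols, libraries came from a TruSeq RNA v2 kit after selection of polyadenylated RNA, and no strand-specific step is named. The authors deposited a table of estimated counts (expected counts) per Ensembl gene, not scaled to depth; 11.1% of its values were not whole (tolerance 1e-06). GRCm38 (mm10), FastQC 0.11.5 and DESeq2 are named in the submitters' processing notes; the aligner, the counting program and the annotation release are not given in the sources used here. Symbols, from GENCODE M21, named 42462 of 43346 identifiers.

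Counts were rounded and analysed in R 4.3.3 with edgeR 4.0.16: filterByExpr by strain, TMM factors (0.722 to 1.226), and a single quasi-likelihood fit to all 27 libraries with strain as the only factor (18 residual degrees of freedom). P-values were adjusted by Benjamini and Hochberg over 14482 genes and called under 0.05. Library totals of 17015932 to 35078483 set the precision; counting error only is covered by depth, since PCR copies are not independent molecules. The model was tested on simulated counts. Samples were grouped by the strain in the labels.

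The members and the gene lists were chosen with earlier results of these data known. Named genes were all members, the remaining pathway enzymes (some genes of the lists are not reported here), the 2 called genes of widest range in each other list, 3 tested genes on each side of Alad, and the 3 genes most like Alad, Alas1 and Blvrb; other regulators of Alas1 were named after their values were seen. Alternatives were DESeq2 1.42.0, median-of-ratios, upper-quartile or no composition factors, other filters, unrounded counts, the replicate number as a factor, each pair of strains alone, log2(CPM + 1), each library left out, and, added after seeing the data, removal of a GC trend.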

Additional observations from a re-analysis of the deposited data

How the results depend on the processing

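The number of members called for any strain difference (9) was 9 with DESeq2, median-of-ratios or upper-quartile factors, a mean of at least 10 counts, unrounded counts and GC trend removed, 8 without a composition factor or a filter on low counts, and 7 to 9 with a library left out. Calls of members against C57BL/6J (16) ran from 14 to 20 over the alternatives of scaling, filter, rounding, GC and test, and from 13 to 16 with a library left out, but 10, all among the 16, were made when each fit held only the 6 libraries of the pair, which leaves fewer samples to estimate the spread. The difference of Alad between DBA/2J and C57BL/6J stayed between 1.17 and 1.47 with a library left out, called pairs of strains (97) between 86 and 101, and other heme genes called (50) between 47 and 52. The 16 calls against C57BL/6J kept their direction in all 36 alternatives and with 6 libraries, as did the 97 called pairs in the 36; directions of the other heme genes were not compared.

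Of the 16 calls against C57BL/6J, 7 held in all 36 alternatives: the 5 of Alad and those of Uros and Cpox in CAST/EiJ. The call of Blvrb in DBA/2J was lost without a composition factor (adjusted p = 0.2235, edgeR) and with the GC trend removed (0.05439), and that of Blvra in CAST/EiJ with upper-quartile factors (0.0973); the cause was not tested. Without a composition factor the median of all genes shifted against C57BL/6J by -0.13 (WSB/EiJ) to 0.32 (NZO/HlLtJ) on the log2 scale, and by 0.27 in CAST/EiJ; the strain effect on Alas1 then had an adjusted p of 0.06089 (edgeR).

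The replicate numbers in the labels are shared by strains. Over the genes tested, deviations of same-numbered libraries had a mean r of 0.02 (-0.40 to 0.36, 76 pairs). Those of different numbers had a mean r of -0.01 (-0.56 to 0.47, 248 pairs). In 23 of the 76 and 61 of the 248 pairs r was over 0.1. Such means cannot show whether some of the libraries share a batch. With a replicate block, 8 members were called for a strain difference, 14 comparisons with C57BL/6J, 88 pairs of strains and 47 other heme genes, and Alad in DBA/2J differed by 1.38 (adjusted p = 1.537e-05, edgeR). The lowest count of a member, 80 in Blvra, has a counting error of 0.16 on the log2 scale, beside an SD within strains of 0.14 for that gene (0.10 at its median of 188 counts), so depth limits the precision of Blvra most. For the other members, counting error at the median count was 0.02 to 0.07, below their SDs of 0.15 to 0.78.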

Other observations

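Alas1 scattered more within strains than 99% of the genes tested, and the listed regulator whose deviations ran most alike was Cebpb, a transcription factor of the acute phase and fasting responses. Over deviations of the 27 libraries from their strain means, Pearson's r between Alas1 and Cebpb was 0.71 and Spearman's rho 0.68, and r was 0.65 without the 2 libraries farthest from the median of Alas1. The highest library of Alas1 in A/J (409 CPM, replicate 3) had 30.8 CPM of Cebpb, beside 13.1 and 16.7 in the other libraries of A/J. The highest in 129S1/SvImJ (273 CPM, replicate 3) had 92.7 CPM of Cebpb, beside 15.0 and 28.2. NOD/ShiLtJ went the other way: replicate 1 had the most Alas1 of its strain (281 CPM) and the least Cebpb (19.2 CPM). Foxo1 (r = 0.50), Clpx (-0.46), Npas2 (-0.44) and Arntl (-0.39) followed, and Ppargc1a, a coactivator of Alas1 in fasting, had r = 0.06. Counts of Cebpb were not whole in 27 of 27 libraries, and these relations, among 16 computed, carry no test.

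The scatter of Alas1 was not shared by the other members. Its highest library in a strain exceeded the lowest by 1.17-fold (DBA/2J) to 5.23-fold (PWK/PhJ), with a median of 2.52-fold over the 9 strains. For the other 8 members the median was 1.15-fold to 1.44-fold, and the highest value was 2.31-fold, in Blvrb.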
